A study of Mus musculus with 4 samples.

Results

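The 10 genes described here, Cdx2, Gata2, Gata3, Tfap2a, Tfap2c, Eomes, Elf5, Hand1, Ets2 and Elf3, encode transcription factors of the trophoblast, the embryonic lineage that builds the placenta. They were read in a mouse embryonic stem cell line, E14, in which Npac had been knocked down by RNA interference (RNAi), and in the same line with control RNAi. Npac, now called Glyr1, encodes a nucleosome-binding chromatin protein. Every probe set (a group of short probes on the array that together read 1 transcript) whose single gene symbol was 1 of these genes was taken. This gave 21 probe sets out of 45101 on the array, and 10 of 18193 genes. Gata3 and Elf3 were read by 1 probe set each, 5 of the genes by 2 and the other 3 by 3. None of the 21 was left out for a low value.

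Each group held 2 arrays. Both groups were of the same line and were cultured alike, in 15% serum with LIF (1000 units per ml), the cytokine that keeps such cells undifferentiated. Both received a short hairpin RNA by transfection, puromycin from 24 hours on, and 3 days of selection before RNA was taken. The labels do not describe the control hairpin or say whether the 2 arrays of a group came from separate transfections, so the p-values measure only the spread between these arrays. Both groups come from 1 cell line.

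In the blastocyst, the outer cells form the trophectoderm while the inner cells keep the pluripotency programme. The choice depends on mutual opposition between Pou5f1 (Oct4), which holds inner cells and embryonic stem cells in the pluripotent state, and trophectoderm factors such as Cdx2. Tead4, working with the Hippo pathway cofactor Yap1, acts upstream of Cdx2 and Gata3. Eomes, Elf5, Tfap2c and Ets2 then maintain trophoblast stem cells, and Hand1, Gata2 and Tfap2a act as these cells differentiate, Hand1 and Gata2 being known from trophoblast giant cells. Embryonic stem cells normally do not enter this lineage, and Elf5 in particular is held silent in them by DNA methylation.

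Values are log2 signals after RMA, the authors' normalization, and a difference is always Npac RNAi minus control RNAi on that log2 scale, so that 1 is a 2-fold rise. A probe set was called when its limma p-value, adjusted over 45037 probe sets with the Benjamini-Hochberg method, was under 0.05. The knockdown itself was visible: Glyr1 stood at 11.30 and 11.32 on the control arrays and at 10.23 and 10.20 on the Npac RNAi arrays (difference -1.09, SE 0.0554, limma adjusted p = 0.00171). Thus 46.9% of the control signal remained, at the 88.9th percentile of all probe sets. The reading rests on 1 probe set marked _s_at, the maker's mark for probes shared by several transcripts. Replicate arrays correlated at 0.998 in both groups across probe sets, and arrays of different groups at 0.987 to 0.989. The 24 poly-A spike-in probe sets, which read control transcripts put into each RNA sample, stood 0.54 higher on the Npac RNAi arrays on average, between 0.21 and 0.81 and higher in 24 of 24. Their part in the differences below was not tested, and values scaled on them are given where they change a call on 1 of the 21 probe sets. With values so scaled, 38240 of the 45037 probe sets were called lower and 1506 higher, and the median difference of all was -0.60. RMA makes the arrays alike in their overall distribution, so every difference is relative to the bulk of the transcripts. In RNA from a whole culture, more cells of a type and more RNA per cell cannot be told apart.

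Trophoblast factor RNA was higher in Npac RNAi cells for 9 of the 10 genes when each was read through its brightest probe set (19.3% of 18193 genes read in this way were called higher and 14.6% lower). No gene of the 10 was called lower by limma through that probe set, and none was lower at an unadjusted p under 0.05. Among all 21 probe sets 15 were called higher, against 14.2% of 45037, and 1 was called lower, against 14%. At least 2-fold higher were 9 of the 21, against 1.99%. The median difference of the 21 probe sets was 0.86, beside -0.06 for all probe sets, and that of the 10 genes was 1.05, beside -0.04 for all genes. The 5 genes Gata3, Gata2, Tfap2c, Tfap2a and Eomes rose at least 2-fold, where 2.92% of all genes were called higher by that much. With scaling on the spike-ins the median of the 10 genes was 0.51, and 6 of them were called higher, the 5 just named and Ets2. The calls on Gata3, on both probe sets of Gata2 and on 2 of the 3 of Tfap2c were kept in each of 17 alternative settings. Without the moderation by which limma shares the spread among probe sets 8 of the 21 passed. They were those 5 and 1 each of Elf3, Ets2 and Eomes, so that Tfap2a, Cdx2 and Hand1 kept no called probe set. The brightest probe sets of Tfap2c and Eomes also lost their calls, and by brightest probe set 4 of the 10 genes were called higher.

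**Figure D1:**
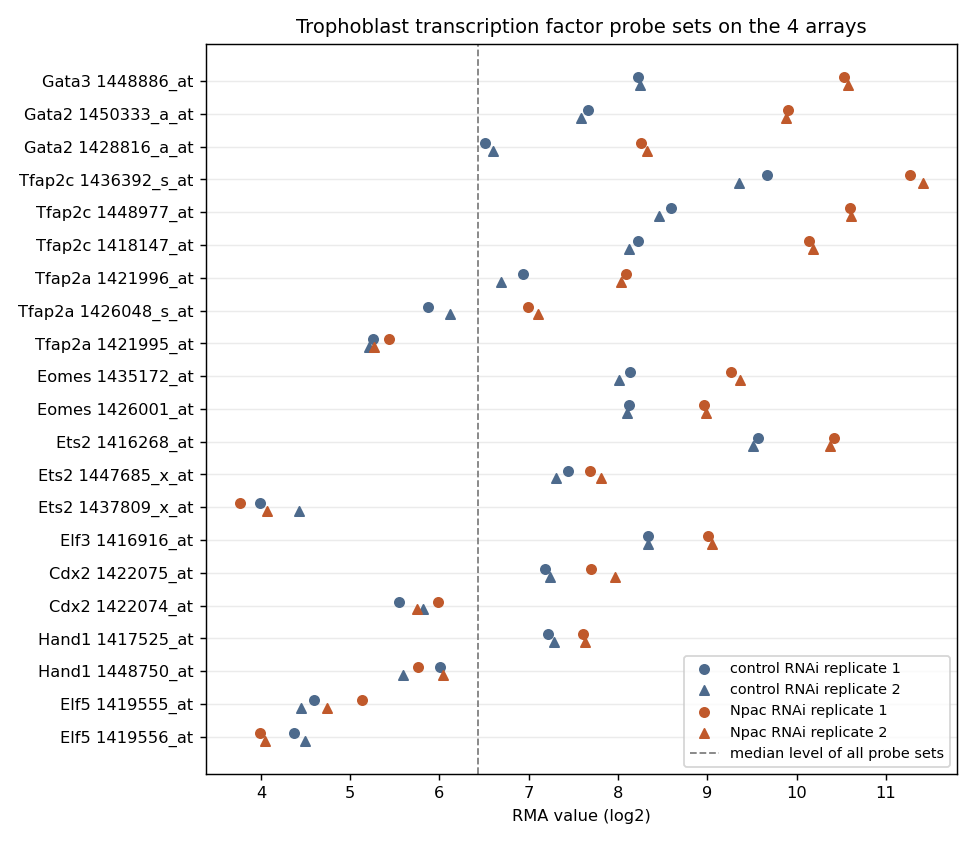
Log2 RMA value (horizontal axis) of each of the 21 probe sets on the 4 arrays. Blue marks are control RNAi and orange marks Npac RNAi, circles are replicate 1 and triangles replicate 2, and the dashed line is the median level of all probe sets (6.44). The orange marks of Gata3, Gata2 and Tfap2c stand far to the right of the blue ones, while the marks of Elf5 and of the dimmest probe sets of Ets2, Hand1 and Cdx2 lie close together or overlap at low level.

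The sequence before the start of a gene is where factors of this kind can bind, and several of these genes rose together, so the 250 bases upstream of the annotated starts were searched. RefSeq promoter sequences of the build GRCm38.p6 were found for 8 of the 10 genes, 11 windows in all. The letters searched on both strands were GCCNNNGGC for AP-2 factors (the family of Tfap2a and Tfap2c), GGAATG for TEAD factors, AGATAA for GATA factors, GGTGTGA for T-box factors such as Eomes, and CCGGAAG for ETS factors such as Ets2 and Elf5. A match describes the letters and shows no binding. The windows of 4 genes are shown, each 5′ to 3′ on the strand of the gene, with matches in capitals. That of Gata3, the gene with the highest rise, lies at chr2:9878601-9878850 on the minus strand and carries 3 AP-2 matches. That of Gata2 is upstream of the second of its 2 annotated starts, at chr6:88198414-88198663 on the plus strand, and carries 1 AP-2 and 1 TEAD match. That of Elf3, at chr1:135258473-135258722 on the minus strand, carries 1 TEAD match. That of Elf5, the gene with discordant probe sets, is upstream of the first of its 2 annotated starts, at chr2:103411848-103412097 on the plus strand, and carries 1 TEAD match.
Gata3: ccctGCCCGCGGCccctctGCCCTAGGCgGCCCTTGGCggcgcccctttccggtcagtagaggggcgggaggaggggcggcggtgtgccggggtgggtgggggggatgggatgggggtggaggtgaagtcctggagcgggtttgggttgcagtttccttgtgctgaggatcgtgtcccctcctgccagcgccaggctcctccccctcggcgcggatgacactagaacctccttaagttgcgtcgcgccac
Gata2: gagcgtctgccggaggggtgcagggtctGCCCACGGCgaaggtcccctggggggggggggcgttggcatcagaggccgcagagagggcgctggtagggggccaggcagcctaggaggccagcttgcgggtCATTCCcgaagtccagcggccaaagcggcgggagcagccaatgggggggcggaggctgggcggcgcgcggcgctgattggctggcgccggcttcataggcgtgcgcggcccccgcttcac
Elf3: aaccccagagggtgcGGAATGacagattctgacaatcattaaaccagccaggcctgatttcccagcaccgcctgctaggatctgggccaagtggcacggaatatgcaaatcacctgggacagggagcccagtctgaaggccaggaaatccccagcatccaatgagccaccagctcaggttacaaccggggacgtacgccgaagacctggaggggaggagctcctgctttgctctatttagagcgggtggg
Elf5: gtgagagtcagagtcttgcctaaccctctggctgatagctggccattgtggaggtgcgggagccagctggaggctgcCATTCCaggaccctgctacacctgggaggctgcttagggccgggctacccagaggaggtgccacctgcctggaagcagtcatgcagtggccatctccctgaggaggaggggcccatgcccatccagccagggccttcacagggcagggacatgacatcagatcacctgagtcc

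Over all 11 windows, AP-2 letters were found in 3 (of Cdx2, Gata2 and Gata3), TEAD letters in 3 (of Elf3, Elf5 and Gata2) and T-box letters in 1 (of Elf5), while GATA and ETS letters were found in 0 windows each. Of all 32851 promoter windows of that length 13.7% held the AP-2 letters, 12.6% the TEAD letters, 9.99% the GATA letters, 6.91% the ETS letters and 3.33% the T-box letters. The AP-2 letters are rich in G and C. G and C made up 55.2% of the Cdx2 window, 74% of the Gata2 window and 70% of the Gata3 window that held them. The median of all windows was 52.4%, and windows of like composition were not compared. No match overlapped another in the windows shown. The windows also differed in CpG content, the dinucleotide at which mammalian DNA is methylated. The Gata3 window held 19 CpG and the Gata2 window 24, 0.633 and 0.741 times the number expected from their base composition. The first Elf5 window held 2, or 0.0814 times the number expected, and the second Elf5 window 8, or 0.402 times. Apart from that first Elf5 window, the 11 windows ran from 0.392 (Elf3) to 0.796 (Ets2). The median over all 32851 windows was 0.373.

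The 2 GATA factors had the largest differences of the 10 genes by their brightest probe sets, although the second probe set of Gata2 gave less than any of Tfap2c. Gata3, a zinc finger factor that specifies trophectoderm beside Cdx2, was read by 1 probe set at 8.23 and 8.24 on the control arrays and at 10.53 and 10.57 on the Npac RNAi arrays. The groups lay 2.29 apart at their nearest points, far beyond the spread within either. Its level rose by 2.32 (SE 0.0566, 95% interval 2.17 to 2.47, limma adjusted p = 0.0011), or 4.99-fold, which moved it from the 72.7th to the 91.0th percentile of all probe sets. Without any 1 array the difference ran from 2.30 to 2.34, and it was 1.78 with spike-in scaling.

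Gata2, which drives placental hormone genes in trophoblast giant cells and also acts in blood progenitors, was read by 2 probe sets. The brighter one stood at 7.67 and 7.58 in control cells and at 9.90 and 9.89 in Npac RNAi cells, a rise of 2.27 (SE 0.0619, limma adjusted p = 0.0011). The dimmer one stood at 6.51 and 6.60 and then at 8.26 and 8.33, a rise of 1.74 (SE 0.0654, limma adjusted p = 0.0011). The groups were separate in both, by 2.22 and 1.66. In fold terms Gata2 rose 4.82-fold by one reading and 3.34-fold by the other.

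The AP-2 factors came next. Tfap2c, needed in trophectoderm and in trophoblast stem cells, reached the 94.8th percentile of all probe sets in Npac RNAi cells by its brightest probe set. All 3 of its probe sets were called higher. The brightest stood at 9.66 and 9.35 on the control arrays and at 11.27 and 11.42 on the Npac RNAi arrays, the second at 8.59 and 8.46 and then at 10.60 and 10.61, and the third at 8.23 and 8.12 and then at 10.14 and 10.18. The rises were 1.84 (SE 0.127), 2.08 (SE 0.0709) and 1.98 (SE 0.0667), with limma adjusted p of 0.00289, 0.0011 and 0.0011, so Tfap2c was 3.58-fold to 4.23-fold higher. The name of the brightest probe set ends in _s_at, the maker's mark for probes shared by several transcripts.

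Tfap2a, an AP-2 factor of differentiating trophoblast that is also known from neural crest and surface ectoderm, was read less evenly. Its brightest probe set stood at 6.94 and 6.69 in control cells and at 8.09 and 8.04 in Npac RNAi cells, a rise of 1.25 (SE 0.101, limma adjusted p = 0.00395), or 2.38-fold. The second, also marked _s_at, stood at 5.87 and 6.12 and then at 7.00 and 7.11, a rise of 1.06 (SE 0.105, limma adjusted p = 0.00585). In both the groups were clearly apart. The dimmest stood at 5.26 and 5.21 against 5.43 and 5.27, a difference of 0.12 (95% interval -0.09 to 0.32, limma adjusted p = 0.316), with groups separated by only 0.0114. With spike-in scaling it was called lower (-0.42, limma adjusted p = 0.00748). The third reading thus lay 1.14 below the first on the log2 scale, and its interval left out the size seen by the brighter ones.

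**Figure D2:**
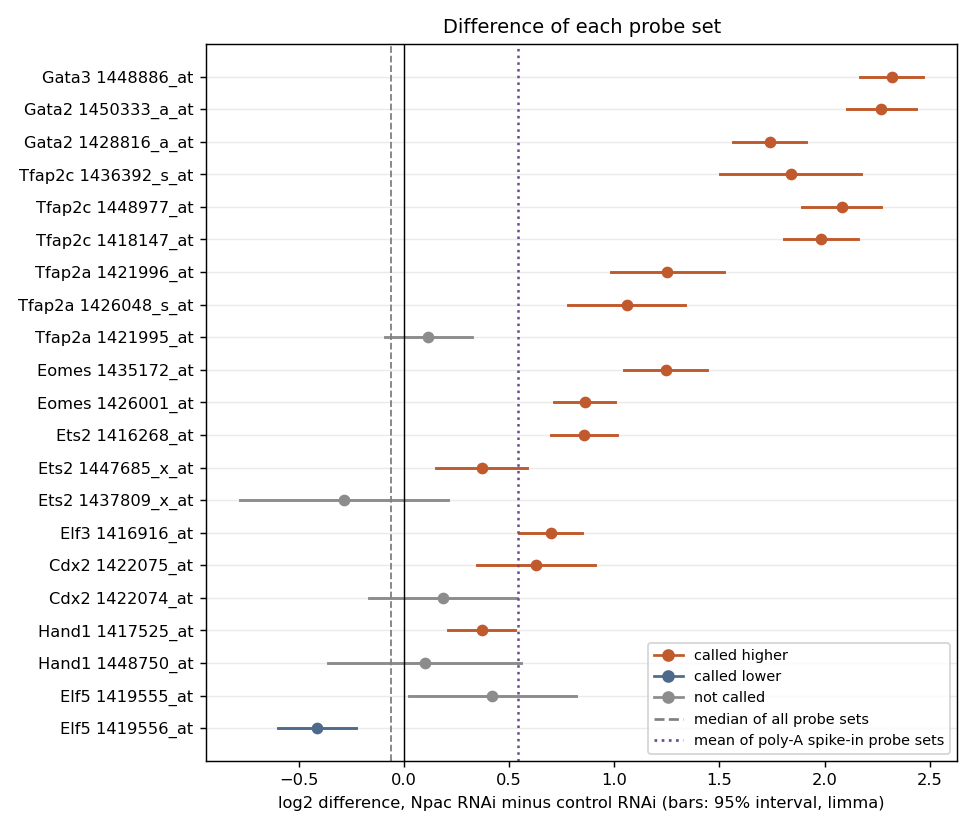
Log2 difference, Npac RNAi minus control RNAi (horizontal axis), of each of the 21 probe sets, with bars for limma's 95% interval, in the same order as the plot of values. Orange marks were called higher, the blue mark lower and grey marks neither, the dashed line is the median of all probe sets (-0.06) and the dotted line the mean of the poly-A spike-in probe sets (0.54). The intervals of Gata3, Gata2, Tfap2c, Eomes and of the brighter Tfap2a probe sets lie right of the dotted line, and those of Hand1 and Elf5 reach or lie left of it.

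Eomes and Cdx2 both act as trophectoderm forms, and both were called higher. Eomes, a T-box factor that also acts in the primitive streak, stood at 8.13 and 8.01 in control cells and at 9.27 and 9.36 in Npac RNAi cells by its first probe set, a rise of 1.24 (SE 0.0745, limma adjusted p = 0.00226), or 2.37-fold. By its second it stood at 8.12 and 8.10 and then at 8.96 and 8.98, a rise of 0.86 (SE 0.0556, limma adjusted p = 0.00255), or 1.81-fold. Neither probe set showed any overlap between groups, and both calls held with spike-in scaling, at 0.70 and 0.32.

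Cdx2, the homeobox factor most closely tied to the start of the lineage, had a difference about as large as that of Elf3. Its brighter probe set stood at 7.18 and 7.23 on the control arrays and at 7.70 and 7.97 on the Npac RNAi arrays. The Npac RNAi arrays were both higher, by 0.47 at the nearest points, and differed from each other by more than the control arrays did. The rise was 0.63 (SE 0.106, 95% interval 0.35 to 0.91, limma adjusted p = 0.0188), or 1.54-fold. The call was lost without control array 1, control array 2 or Npac array 2 (limma adjusted p = 0.0945, 0.0991 and 0.0593) and with spike-in scaling, where the difference was 0.09 (range of limma adjusted p over 17 settings 0.00103 to 1). The dimmer Cdx2 probe set stood at 5.54 and 5.82 against 5.99 and 5.75. Its groups overlapped, and its difference of 0.18 (95% interval -0.17 to 0.54, limma adjusted p = 0.338) was within the spread.

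The 3 factors with an ETS domain, Ets2, Elf3 and Elf5, did not read alike: Ets2 and Elf3 were called higher, and the probe sets of Elf5 disagreed. Ets2, which supports trophoblast stem cell renewal and is broadly expressed, was already bright in control cells, at 9.57 and 9.52, and stood at 10.42 and 10.38 in Npac RNAi cells. This was a rise of 0.86 (SE 0.0591, limma adjusted p = 0.00289), or 1.81-fold. The other Ets2 probe sets are marked _x_at, the maker's sign that some of their probes may bind other transcripts. One stood at 7.44 and 7.31 and then at 7.68 and 7.80, a rise of 0.37 (SE 0.0813, limma adjusted p = 0.0345) whose call was lost without any 1 of the 4 arrays (limma adjusted p = 0.0739 to 0.145) and whose sign turned with spike-in scaling (-0.17; range of limma adjusted p over 17 settings 0.00828 to 1). The other was dim, at 3.99 and 4.43 against 3.77 and 4.07, with overlapping groups (difference -0.29, limma adjusted p = 0.297), and was called lower with spike-in scaling (-0.83, limma adjusted p = 0.00196).

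Elf3, an epithelial ETS factor, stood at 8.33 on both control arrays and at 9.01 and 9.05 on the Npac RNAi arrays. The rise was 0.70 (SE 0.0563, limma adjusted p = 0.00392), or 1.62-fold, and was called without any 1 array (limma adjusted p up to 0.0465). It was 0.16 and not called with spike-in scaling. The control arrays were nearly equal, so the SE rests mostly on the spread that limma borrows from all probe sets.

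Elf5, the ETS factor that marks committed trophoblast stem cells, stood near the bottom of the array. One probe set read 4.59 and 4.45 in control cells and 5.14 and 4.74 in Npac RNAi cells, and its difference of 0.42 did not pass (SE 0.15, 95% interval 0.02 to 0.82, limma adjusted p = 0.101). The other read 4.37 and 4.49 and then 3.99 and 4.05, a fall of 0.41 on the log2 scale (log2 difference -0.41, SE 0.0702, 95% interval -0.60 to -0.23, limma adjusted p = 0.0189), the only call of a lower level among the 21. The groups were separate in both probe sets, in opposite directions, and the intervals did not meet. In control cells they lay at the 19.1th and 17.6th percentile of all probe sets. The call on the second was lost without any 1 of the 4 arrays (limma adjusted p = 0.0612 to 0.0952; range over 15 settings 0.000239 to 1), and the first passed after quantile normalization (0.53, limma adjusted p = 0.0495) and cyclic loess (0.54, limma adjusted p = 0.0487). The mean of both was 0.003 (limma adjusted p = 0.978). These readings give Elf5 no settled direction.

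Hand1, a basic helix-loop-helix factor needed for trophoblast giant cells and also for heart and extraembryonic mesoderm, had the smallest difference of the 9 genes called higher. Its brighter probe set stood at 7.21 and 7.29 and then at 7.61 and 7.63, with no overlap. The rise of 0.37 (SE 0.0602, 95% interval 0.21 to 0.53, limma adjusted p = 0.0173), or 1.29-fold, lost its call without any 1 of the 4 arrays (limma adjusted p = 0.0704 to 0.0917) and turned to -0.17 with spike-in scaling (range of limma adjusted p over 17 settings 0.00354 to 1). The dimmer probe set stood at 6.00 and 5.59 against 5.76 and 6.03, overlapping (difference 0.10, limma adjusted p = 0.698). Its sign turned without control array 2 (-0.11) and without Npac array 2 (-0.04), and with spike-in scaling it was called lower (-0.44, limma adjusted p = 0.0117).

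**Figure D3:**
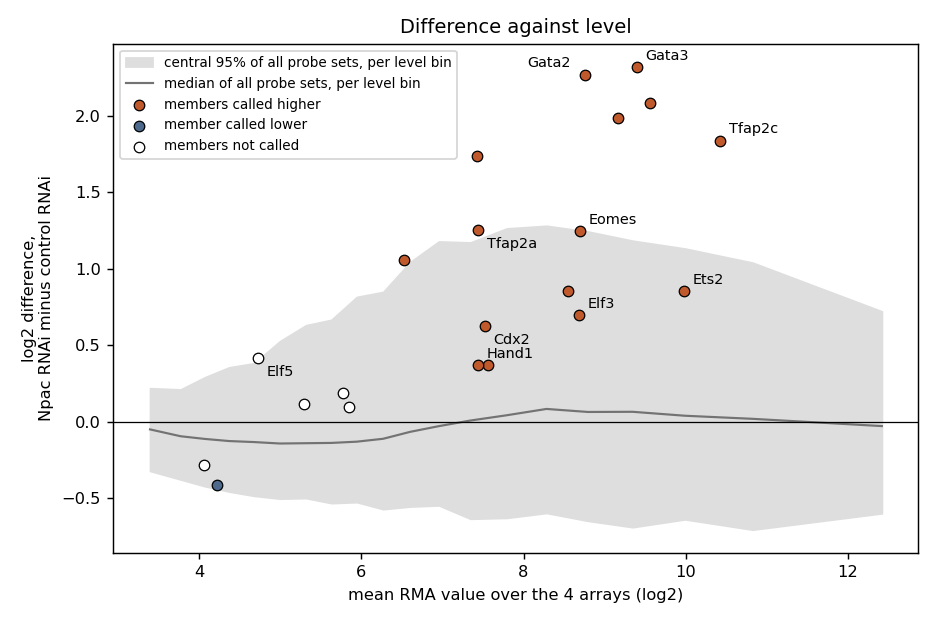
Log2 difference, Npac RNAi minus control RNAi (vertical axis), against the mean log2 RMA value over the 4 arrays (horizontal axis) for the 21 probe sets, with names beside the brightest probe set of each gene. The grey band holds the central 95% of all probe sets in each of 20 level bins and the grey line their median. Orange points were called higher, the blue point lower and white points neither. The probe sets of Gata3, Gata2 and Tfap2c lie well above the band, Tfap2a, Eomes and Elf5 lie at its upper edge, Cdx2, Elf3, Ets2 and Hand1 lie inside it, and the white and blue points are all at the dim end.

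In order of their rises through the brightest probe set, the genes ran Gata3 (2.32), Gata2 (2.27), Tfap2c (1.84), Tfap2a (1.25), Eomes (1.24), Ets2 (0.86), Elf3 (0.70), Cdx2 (0.63), Elf5 (0.42, not called) and Hand1 (0.37). The 95% intervals of Eomes (1.05 to 1.44) and Ets2 (0.70 to 1.01) did not meet, while those of every other pair of neighbours in this order did, Tfap2c and Tfap2a only just. Differences between genes were not tested, and probes of different genes need not respond alike. Probe sets of 1 gene spread by 0.24 for Tfap2c, 0.27 for Hand1, 0.39 for Eomes, 0.44 for Cdx2 and 0.53 for Gata2, and by 0.83 for Elf5, 1.14 for Tfap2a and 1.14 for Ets2. All probe sets of 5 genes (Gata2, Gata3, Tfap2c, Eomes and Elf3) were called higher, and in the other 5 the readings differed in call or direction. The 6 probe sets not called higher were the 6 dimmest of the 21 by mean over the 4 arrays. Groups did not overlap, with Npac RNAi higher, for 17 of the 21 probe sets, where 28.0% of all probe sets did so, and with Npac RNAi lower for 1, where 41.1% did so.

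Most relatives of the 10 factors within their families were not called. Of 18 measured, such as Cdx1, Gata4, Tfap2b and Hand2, 2 were called higher and 2 lower (11.1% each, beside 19.3% and 14.6% of all genes). These relatives were dim, with a median level of 5.45 in control cells against 7.85 for the 10 genes. Of the 18, 6 lay below the 25th percentile. The median difference of the relatives was -0.04. It was -0.58 with spike-in scaling and 0.02 and 0.04 after quantile normalization and cyclic loess. Ets1, a relative of Ets2, rose by 1.29 (SE 0.131, limma adjusted p = 0.00611), from 8.14 and 7.80 to 9.20 and 9.31, and Elf2 by 0.60 (SE 0.0564, limma adjusted p = 0.00529). The dim genes Tbx21 (-0.45) and Ehf (-0.47) were called lower. Without any 1 array 1 or 2 of the 18 were called higher and 0 or 1 lower. Gata6, the primitive endoderm counterpart of the trophoblast GATA factors, named after its values were seen, stood at 9.22 and 9.23 in control cells and at 9.23 on both Npac RNAi arrays (95% interval of the difference -0.14 to 0.14). Arrays within each group were nearly equal, so this interval rests mostly on the spread that limma borrows from all probe sets.

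Other regulators of trophoblast, from a list of 35, were measured for 32 genes, and 18 were called higher and 3 lower (median 0.32). Among all genes 19.3% were called higher and 14.6% lower. Tead4, the upstream factor of Cdx2 and Gata3, rose from 6.81 and 6.88 to 7.76 and 7.68, by 0.87 (SE 0.0641, limma adjusted p = 0.00328). Ascl2, a factor of placental spongiotrophoblast, rose from 7.66 and 7.75 to 10.38 and 10.40, by 2.69 (SE 0.0628, limma adjusted p = 0.0011), and the homeobox gene Msx2 by 1.78 (SE 0.0567). The nuclear receptor Rxra fell by 0.39 and Sox21 fell by 0.33 on the log2 scale (limma adjusted p = 0.0132 and 0.0339). When any 1 array was dropped 8 to 11 genes of the list were higher and 0 lower. Spike-in scaling gave a median of -0.22 and calls of 9 higher and 15 lower.

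Signals and receptors of trophoblast moved both ways, with 9 of 20 higher and 6 lower, beside 19.3% and 14.6% of all genes. The median of the list was 0.16. Spike-in scaling gave -0.38, with 5 higher and 11 lower. The growth factor gene Igf2 rose by 2.72 (SE 0.0568) and Bmp8b by 2.27 (SE 0.0943), with limma adjusted p of 0.0011 and 0.00124. Tdgf1, a Nodal co-receptor, fell by 1.23, and Spry4, an inhibitor of FGF signalling, fell by 0.95 on the log2 scale (limma adjusted p = 0.00138 and 0.00268). Fgfr2, the receptor through which FGF4 maintains trophoblast stem cells, rose by 1.09 (SE 0.0634, limma adjusted p = 0.00216), while Fgf4 itself fell by 0.52 (SE 0.0603, limma adjusted p = 0.00819). Both were named after their values were seen. Without any 1 array 5 to 7 were higher and 2 to 4 lower.

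Genes listed as effectors of trophectoderm and early trophoblast included keratin, water channel and Rhox homeobox genes. Of 27 measured 20 were higher and 3 lower, beside 19.3% and 14.6% of all genes. The median of the list, 0.93, stayed above 0 with spike-in scaling (0.39, with 15 higher and 8 lower). The epithelial keratins Krt7 and Krt8 rose by 2.52 (SE 0.0889) and 2.06 (SE 0.0568), each with a limma adjusted p of 0.0011. The water channel genes Aqp3 and Aqp8 fell by 0.45 and 0.49 on the log2 scale (limma adjusted p = 0.011 and 0.00885). Without any 1 array 13 to 16 were higher and 0 or 1 lower. Markers of later placental cells were mostly dim, with 9 of 17 measured below the 25th percentile of all probe sets. Called higher were 6, led by Timp3 (1.13, SE 0.0647, limma adjusted p = 0.00211) and the receptor gene Flt1 (1.26, SE 0.0762, limma adjusted p = 0.00226), which are also expressed outside the placenta. Psg21 was called lower (-0.26, limma adjusted p just under the threshold), a call not made after quantile normalization, centring or cyclic loess. The median of this list was 0.08, and -0.46 with spike-in scaling (3 higher, 11 lower), and 4 were higher in each fit without 1 array.

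**Figure D4:**
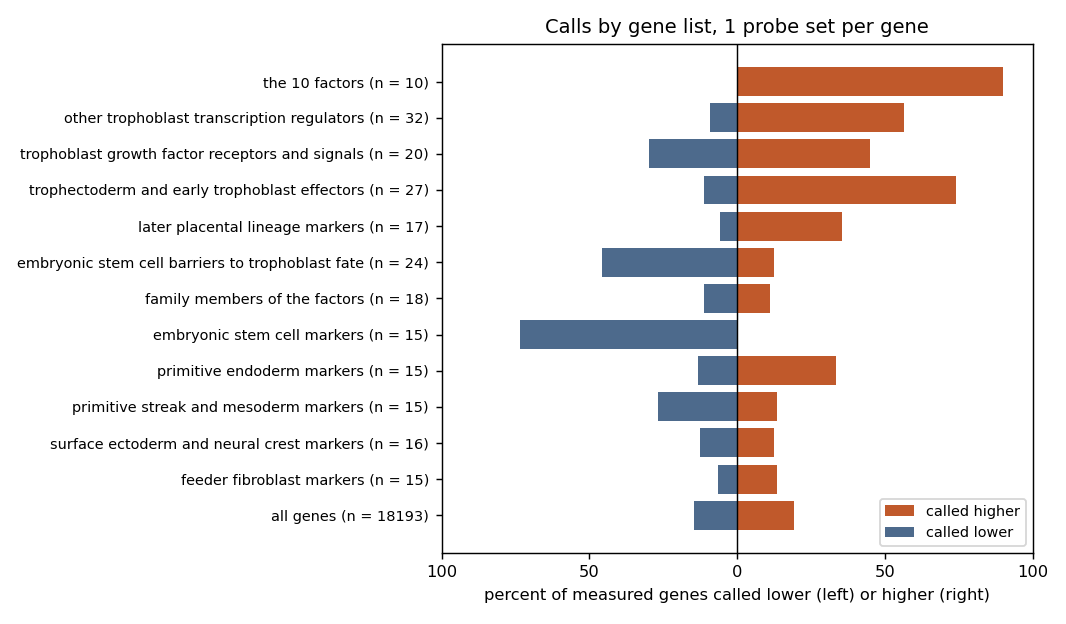
Percent of measured genes called higher (orange, right of 0) and lower (blue, left of 0) in each gene list, with the number measured in brackets and all genes in the bottom row. The 10 factors show 90.0% higher, the trophectoderm effectors 74.1%, and all genes 19.3%, while the embryonic stem cell markers show 73.3% lower and 0% higher.

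Genes listed as embryonic stem cell barriers to trophoblast fate leaned the other way, with 11 of 24 measured lower and 3 higher (median -0.16, and -0.70 with spike-in scaling). Among all genes 14.6% were called lower and 19.3% higher. The list is broad, and such a role of each gene was not tested here. Pou5f1 stood at 13.03 and 13.08 in control cells and at 11.91 and 11.88 in Npac RNAi cells. It thus fell by 1.17 on the log2 scale (SE 0.058, limma adjusted p = 0.00162), yet remained at the 96.7th percentile of all probe sets. Tcl1, a cofactor of Akt, fell by 1.90 (SE 0.062, limma adjusted p = 0.0011). The genes called higher included Sall1 (0.65, SE 0.0677, limma adjusted p = 0.00639) and the DNA methyltransferase gene Dnmt3b (0.43, SE 0.0561, limma adjusted p = 0.0107). Of the maintenance methylation genes, named after their values were seen, Uhrf1 fell by 0.57 on the log2 scale (SE 0.0655, limma adjusted p = 0.00791), and Dnmt1 differed by -0.07 (95% interval -0.25 to 0.10, limma adjusted p = 0.439). Without any 1 array 3 to 7 were lower and 0 or 1 higher.

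Markers of embryonic stem cells were still expressed in both groups, at lower levels in Npac RNAi cells for most. Some of them, such as Pou5f1, Nanog, Tdgf1 and Fgf4, were also counted in lists above. The median level of 15 such markers was 12.55 in control cells (Sall4) and 11.89 in Npac RNAi cells (Pou5f1). Those 2 levels thus belong to different markers. The median difference was -0.36, and none of the 15 markers lay below the 25th percentile. Of these 11 were called lower and 0 higher by limma, with 12 lower and 0 higher at an unadjusted p under 0.05 (9 to 15 lower over the 4 other scalings, and 2 to 4 without any 1 array). Several of the 10 factors also act in other cell types, whose markers were read beside them. For scale, 19.3% of all genes were called higher and 14.6% lower. Primitive endoderm markers gave 5 higher and 2 lower of 15, with a summed level (log2 of the summed linear values) of 14.15 to 14.17 in control cells and 14.77 to 14.79 in Npac RNAi cells. Col4a1 (0.98) and Sparc (0.92), basement membrane genes, were higher, while Amn (-0.74) and Pdgfra (-0.49) were lower. A summed level rests mostly on the brightest genes of a list, here Sparc, Lamb1 and Col4a1. The transcription factor genes Gata4 (-0.02), Gata6, Sox7 (0.02), Sox17 (0.25) and Hnf4a (-0.27) were not called, and Foxa2 (0.66) was called higher. Primitive streak and mesoderm markers gave 2 higher, Wnt3 (0.48) and Tbx6 (0.32), and 4 lower of 15, among them Foxf1 (-0.34), with a summed level of 10.40 to 10.41 and then 10.14 to 10.18. Surface ectoderm and neural crest markers gave 2 higher, Krt14 (1.27) and Grhl3 (1.44), and 2 lower, Foxd3 (-0.54) and Snai2 (-0.32), of 16, with a summed level of 11.11 to 11.14 and then 11.35 to 11.36. Feeder fibroblast markers gave 2 higher, Pdgfrb (0.79) and S100a4 (0.36), and 1 lower, Prrx1 (-0.29), of 15. Their summed level was 9.74 to 9.84 and then 10.02 to 10.03, with Pdgfrb the brightest of them. Of the 15, 6 lay below the 25th percentile. The median differences of these 4 lists were 0.16, -0.17, -0.06 and -0.04, the last 2 of which turned above 0 after quantile normalization (0.01 and 0.05) and cyclic loess (0.05 and 0.07). Without any 1 array these 4 lists had 2 to 4, 0, 2 to 3 and 0 to 1 members called higher, and with spike-in scaling 10, 12, 12 and 13 of their members were called lower. With that scaling 38240 of all 45037 probe sets were called lower. The part of such cells in the levels of the 10 factors was not tested.

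**Figure D5:**
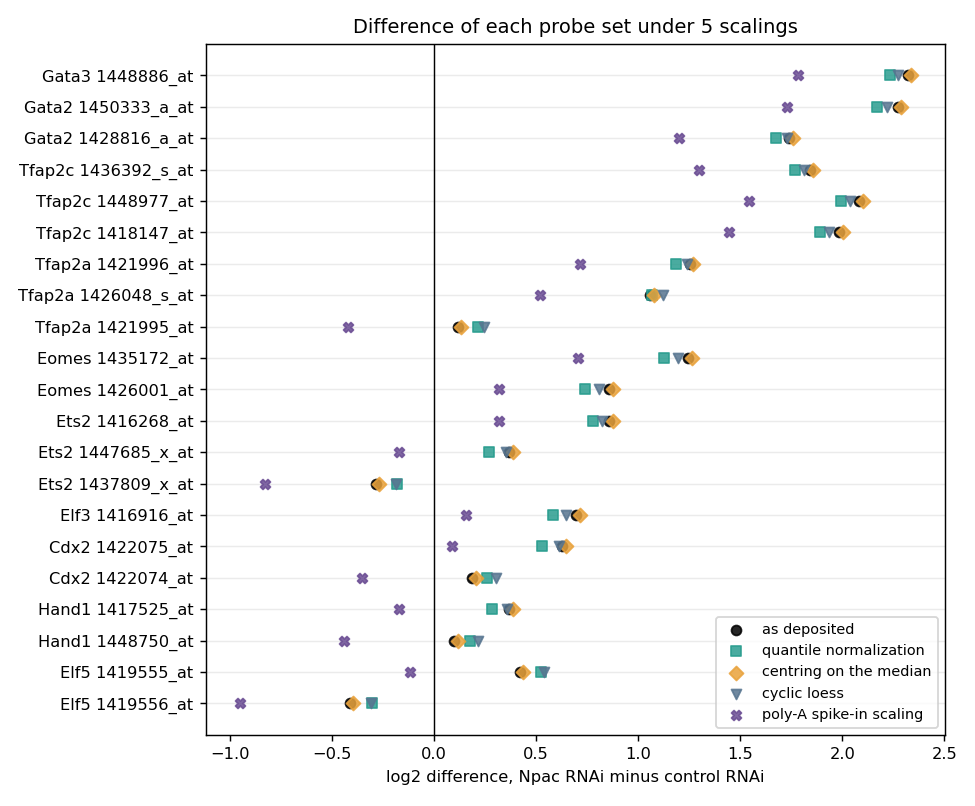
Log2 difference, Npac RNAi minus control RNAi (horizontal axis), of each of the 21 probe sets under 5 scalings: as deposited (black circles), a further quantile normalization (green squares), centring on the array median (yellow diamonds), cyclic loess (blue triangles) and scaling on the poly-A spike-ins (purple crosses). The purple crosses lie 0.54 to the left of the black circles throughout. For Gata3, Gata2, Tfap2c, Eomes and the brighter Tfap2a probe sets all 5 marks are right of 0, while the crosses of Hand1, Elf5 and the dimmer probe sets of Cdx2, Tfap2a and Ets2 are left of it.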

How the data were processed

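The deposited values are log2 signals, 1 per probe set and array, made by the authors with RMA, which is named without a version in the submitters' processing notes. The log base is inferred from the values, which ran from 2.78 to 15.05 outside the 64 control probe sets. Neither the software nor the probe set definitions are given in the sources used here.

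Probe sets were named from GEO's platform annotation, where 34945 carried 1 symbol, 932 several and 9160 none. RefSeq (GRCm38.p6) gave the current symbol of 34741 by Entrez identifier and changed no member's name. All 45037 probe sets were fitted with limma 3.58.1 in R 4.3.3 (group as the only term, no filter, 2 residual degrees of freedom and 2.56 from the prior), and p-values were adjusted over all of them with the Benjamini-Hochberg method. The procedure was tested on simulated data with independent arrays and spreads drawn from limma's own prior. That test does not bear on how the arrays of a group were replicated. For counts of genes, each was read through its brightest probe set by mean of the 4 arrays. All 10 factors and every probe set of theirs are named, Glyr1, and from each of 11 gene lists up to 2 higher and 2 lower called genes with the smallest adjusted p (ties in list order), with Pou5f1, Tead4 and Ascl2 always. The members and lists were chosen with earlier results of these data known. Some genes are on more than 1 list, so the counts of different lists are not separate readings. Same-numbered arrays of the groups are not said to be paired. Alternatives were other scalings, filters, empirical Bayes forms, probe set choices, thresholds, a replicate block and omission of single arrays.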

Additional observations from a re-analysis of the deposited data

How the results depend on the processing

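Over all probe sets 12705 were called, against 1893 without moderation, 3737 at an adjusted p under 0.01, 770 with a minimum fold of 1.5, 39746 with spike-in scaling and 2060 to 4237 without 1 array (fewest without control array 2). Of these calls 50.2% were higher, and 3.79% with spike-in scaling, which shifted every difference by -0.54. With that scaling 38240 of all 45037 probe sets were called lower. Of the 21 probe sets 15 were called higher, but 8 without moderation, 7 with the minimum fold and 12 to 13 without 1 array. The 1 lower call, on Elf5, became 4 with spike-in scaling and 0 without moderation, at an adjusted p under 0.01, with the minimum fold, with either filter on dim probe sets, which removed that probe set, and without any 1 array. Of the 10 genes 9 were called higher, but 4 without moderation and 4 with the minimum fold, and 1 gene, Elf5, was called lower (-0.41) through the probe set with the largest interquartile range. Spike-in scaling turned the sign of Cdx2 (dimmer probe set, -0.36), Tfap2a (dimmest, -0.42), Elf5 (-0.12), Ets2 (-0.17) and Hand1 (-0.17 and -0.44), and Hand1's dimmer probe set ran from -0.11 to 0.30 without 1 array (-0.11 without control array 2, -0.04 without Npac array 2). The cause of these changes was not tested.

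Same-numbered arrays did not deviate together (correlation of deviations -0.14). With the replicate block 4887 probe sets were called, of the 21 then 13 higher and 0 lower. The crossed pairing, added after that correlation was seen, gave 9500, 15 and 0. Counts of probe sets could not be given where 1 value per gene was fitted.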
